A study of Anopheles gambiae with 9 samples.

Results

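The circadian clock genes of the mosquito ear were 7 genes of Anopheles gambiae: per (AGAP001856), tim (AGAP008288), Cry2 (AGAP004261), Clk (AGAP005711), cyc (AGAP005655), Pdp1 (AGAP006376) and Cry1 (AGAP001958). They were picked out of the table by gene identifier as genes of the clock, a rule that uses no measured value although it was set with earlier results of these data known, and had 11 transcripts of the 16066 in the table and 7 of its 13845 genes. All 11 transcripts passed the filter on low counts, which left 12379 transcripts and 10487 genes to test.

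RNA was sequenced from pools of pedicels, the antennal segments that house the Johnston's organ, the hearing organ of the mosquito. The mutants were dsxF-/- XX mosquitoes, intersex animals that carry 2 disrupted copies of the female-specific form of the sex determination gene doublesex. The controls were dsxF+/+ XY males and dsxF+/+ XX females, both of the G3 strain. The paper lists the mutants as a separate strain, the doublesexF mutant strain. The background of that strain is not stated in the sources used here, so strain and genotype cannot be told apart. Each of the 3 groups had 3 libraries of 63 to 76 pedicels, which the methods call biological repeats. At an age of 2 to 3 days, all mosquitoes began 3 days of entrainment to 12 h of light and 12 h of dark, and all were frozen on the last of these days, as the light began to dim over the final 1 h of the light phase. This single sampling time means that a difference in the level of a rhythm and a difference in its phase cannot be told apart. The mutation was present in the whole animal. By the general rearing methods, mutant pupae were not separated by sex while control pupae were. The adults for sequencing were sorted by sex and genotype before entrainment. Whether the pupal housing applied to these pools is not stated, and if it did, genotype and housing cannot be told apart.

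The clock is a feedback loop that runs in the brain and in many peripheral tissues of insects. In Drosophila the transcription factors Clk and cyc pair to switch on per and tim, whose proteins return to the nucleus and shut off that same pair. Mosquitoes also carry 2 cryptochromes, a light-sensing form, Cry1, and a form that acts as a repressor of the Clk and cyc pair, Cry2. Pdp1 is an activator of Clk in Drosophila, where per and tim transcripts are highest around dusk and early night and those of Clk near dawn.

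The libraries held 14177255 to 18379886 estimated counts, and values below are normalized counts, that is, counts scaled to a common library size. In dsxF+/+ XX replicate 3 the 10 leading transcripts held 23.7% of all counts, and in the other 8 libraries 8.95% to 14.2%. Levels were read for 8 markers of Johnston's organ neurons and their cilia, all 8 of which had counts in every library. Their summed level was 60226 to 67195 in dsxF-/- XX, 87465 to 90372 in dsxF+/+ XY and 16352 to 18167 in dsxF+/+ XX libraries. The markers had been named by the study because they were higher in the males of these same samples, so neither their presence nor their order is independent evidence. Markers of other tissues were not analysed, so the tissue label was not checked. The group means of per, Cry2, Clk, Pdp1 and Cry1 took the same order, though Clk and Pdp1 overlapped between all groups, and those of tim and cyc did not. The share of all genes with this order was not counted. The part of cell makeup in the results below was not tested. In such bulk tissue, fewer cells of a type and less RNA per cell cannot be told apart.

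**Figure D1:**
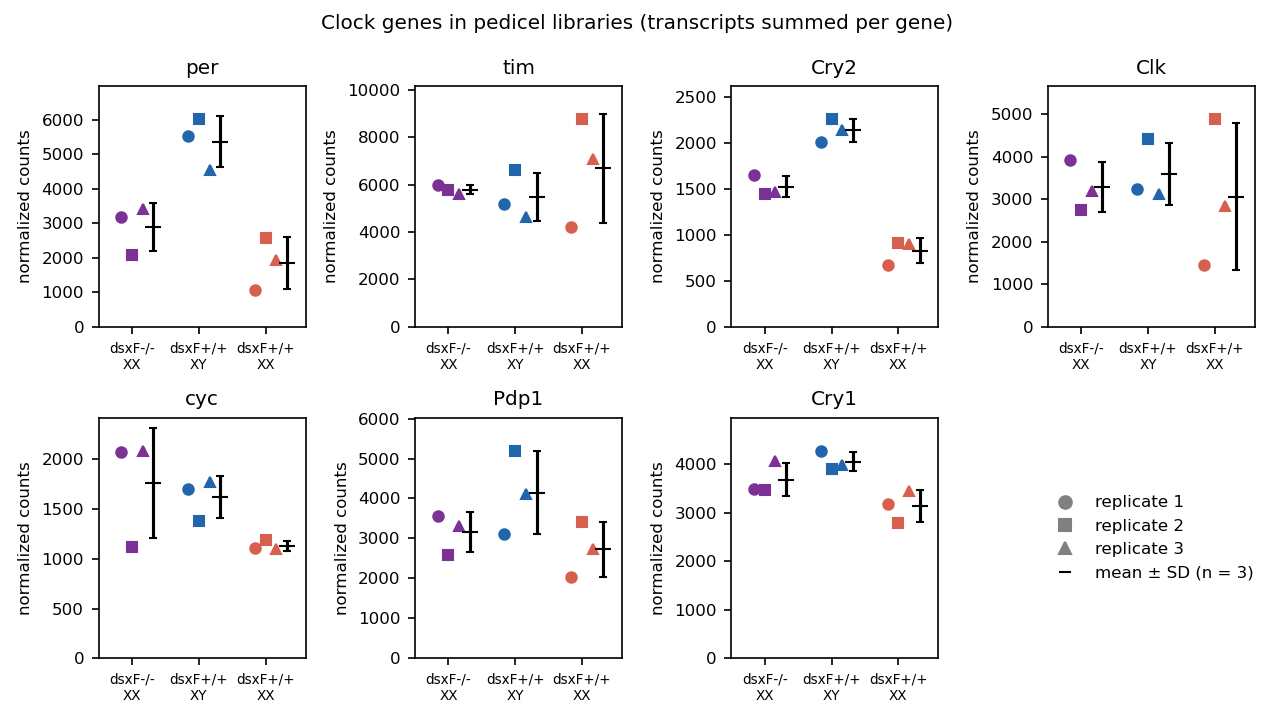
Normalized counts (y axis, linear) of the 7 clock genes in each library, with the transcripts of tim, Cry2 and Pdp1 summed per gene; symbols mark replicate numbers, and bars the mean and SD of the 3 libraries of a group. All dsxF+/+ XY libraries stood above all dsxF+/+ XX libraries for per, Cry2, cyc and Cry1, while the groups overlapped for tim, Clk and Pdp1.

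The comparison of dsxF+/+ XY with dsxF+/+ XX pedicels asked which clock genes differ between male and female ears. Of the 11 transcripts 3 were higher in dsxF+/+ XY, those of per, Cry2 and Pdp1, and 0 were lower at an adjusted p under 0.05 in edgeR. Over all transcripts tested, 11.7% were higher and 18.1% lower at this threshold. The groups did not overlap for 5 of the 11, those of per, cyc, Cry1 and 1 transcript each of Cry2 and Pdp1, all higher in dsxF+/+ XY, where 20.1% of all transcripts were higher and 23.4% lower without overlap. The median log2 fold change of the 11 was 0.46, against 0.02 for all transcripts. With transcripts summed, 2 of 7 genes, per and Cry2, were higher (13.1% of all genes) and 0 were lower (19.5% of all genes). Per gene, 4 of 7 did not overlap, per, Cry2, cyc and Cry1, all higher in dsxF+/+ XY (20.6% of all genes higher, 23.8% lower).

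The comparison of dsxF-/- XX with dsxF+/+ XX pedicels asked which clock genes differ between mutant and control XX ears. Here 1 of 11 transcripts was higher, a Cry2 transcript, and 0 were lower, where 4.18% of all transcripts were higher and 6.87% lower. With transcripts summed, Cry2 was the 1 of 7 genes that was higher (5.04% of all genes), and 0 were lower (9.36% of all genes). The groups did not overlap for 3 transcripts, those of Cry1 and 1 each of Cry2 and Pdp1, all higher in the mutant (13.4% of all transcripts higher, 17.4% lower), nor for the gene levels of Cry2 and Cry1, 2 of 7 (14% of all genes higher, 17.9% lower). The median log2 fold change was 0.23, against -0.00 for all transcripts.

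The comparison of dsxF-/- XX with dsxF+/+ XY pedicels asked where the mutant ear still differs from the male ear. edgeR called 0 of 11 transcripts and 0 of 7 genes, where 6.09% of all transcripts were higher and 1.3% lower, and 7.66% of all genes were higher and 1.57% lower. The lowest unadjusted p in edgeR was 0.0212 among transcripts (per), and 0.0186 (per) and 0.0217 (Cry2) among genes, all lower in the mutant. DESeq2 and limma-voom called 0 transcripts and 0 genes as well. Over all features, DESeq2 called 12% of transcripts and 13.2% of genes, and limma-voom 6.65% and 8.37%. The groups did not overlap for 1 transcript (per), lower in the mutant, where 11.6% of all transcripts were lower and 16.4% higher without overlap, and for the gene levels of per and Cry2, 2 of 7, also lower in the mutant (11.9% of all genes lower, 17.2% higher). The 3 comparisons share their libraries, so their results are not independent of each other.

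**Figure D2:**
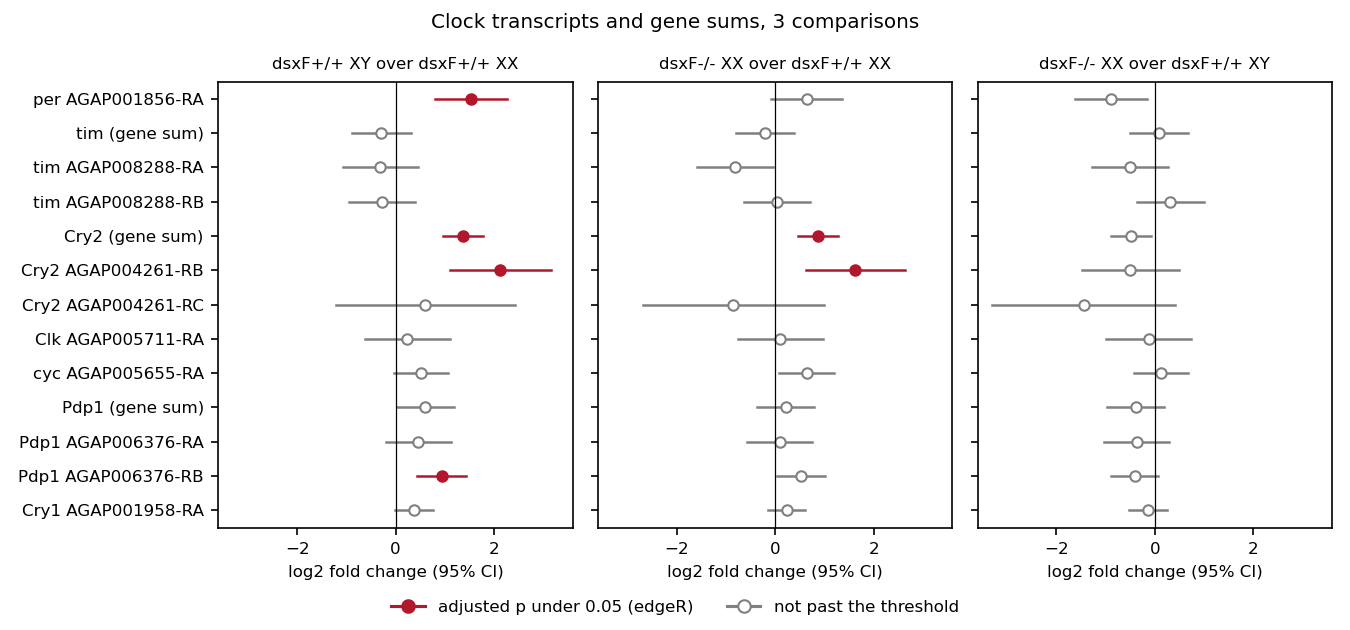
Log2 fold changes of clock transcripts and of the gene sums of tim, Cry2 and Pdp1 (points) with 95% confidence intervals (lines) in the 3 comparisons, filled red where the adjusted p in edgeR was under 0.05. The 3 transcripts past the threshold between dsxF+/+ XY and dsxF+/+ XX belong to per, Cry2 and Pdp1; AGAP004261-RA of Cry2, which had counts above 2 in 3 libraries only, is left out.

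In the repressor arm of the loop, per and Cry2 held the largest differences called among these genes, while tim was called in no comparison. per, the gene first known for setting the length of the daily cycle in Drosophila, had 1 transcript, AGAP001856-RA. Its level was 3175, 2088 and 3402 normalized counts in the dsxF-/- XX libraries, 5536, 6015 and 4557 in dsxF+/+ XY, and 1064, 2568 and 1926 in dsxF+/+ XX. Every dsxF+/+ XY library lay above all others, and the dsxF-/- XX and dsxF+/+ XX libraries overlapped, since mutant replicate 2 fell below female replicate 2. The level of per was 2.90-fold higher in dsxF+/+ XY males than in dsxF+/+ XX (log2 1.53, SE 0.33, edgeR adjusted p = 0.00723). Between the libraries that shared a run of sample-sheet numbers, the numbers that end the column names, per was 2.87-fold, 4.28-fold and 2.34-fold higher in dsxF+/+ XY. What these numbers mark is not stated in the sources used here. The mutant was not separated from either control by the test: the log2 difference from dsxF+/+ XX was 0.64 (95% interval -0.09 to 1.37, edgeR adjusted p = 0.249) and from dsxF+/+ XY it was -0.89 (95% interval -1.62 to -0.17, edgeR adjusted p = 0.159). Without dsxF+/+ XX replicate 1, the gene-level fit called per lower in the mutant than in dsxF+/+ XY (log2 -0.90, edgeR adjusted p = 0.0484). The call between the controls was lost when the 3 libraries of sheet numbers 1 to 7 were left out together (log2 1.54, edgeR adjusted p = 0.0934, the highest of 19 alternatives, of which the lowest was 6.34e-05). That fit has 2 libraries per group and called 12.3% of all transcripts between the controls, against 29.8% with all 9 libraries.

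tim encodes the partner of the per protein, the one degraded in light in Drosophila. Summed over its transcripts, tim had 5989, 5776 and 5627 normalized counts in the dsxF-/- XX libraries, 5177, 6613 and 4645 in dsxF+/+ XY, and 4213, 8772 and 7090 in dsxF+/+ XX. The 3 mutant libraries were close together and all inside the range of the females, which spanned the lowest and the highest of the 9 values. No difference passed the test: the log2 fold change was -0.29 for dsxF+/+ XY over dsxF+/+ XX (95% interval -0.88 to 0.31), -0.21 for dsxF-/- XX over dsxF+/+ XX (-0.80 to 0.39) and 0.08 for dsxF-/- XX over dsxF+/+ XY (-0.51 to 0.68), with edgeR adjusted p from 0.430 to 0.910. The last 2 turned sign without dsxF+/+ XX replicate 2 (0.004 for dsxF-/- XX over dsxF+/+ XX) and without dsxF+/+ XY replicate 3 (-0.003 for dsxF-/- XX over dsxF+/+ XY).

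Of the 2 tim transcripts, AGAP008288-RB took most of the counts in every library, 73% to 86.1% in dsxF-/- XX, 53.3% to 72.8% in dsxF+/+ XY and 63.2% to 69.6% in dsxF+/+ XX. Its levels were 4458, 4224 and 4883 in dsxF-/- XX, 3674, 4727 and 2481 in dsxF+/+ XY, and 2801, 5460 and 4959 in dsxF+/+ XX, so the groups overlapped in every comparison. The other, AGAP008288-RA, had 787 to 1563 in dsxF-/- XX, 1539 to 2177 in dsxF+/+ XY and 1451 to 3186 in dsxF+/+ XX. Its log2 fold change of -0.82 in dsxF-/- XX over dsxF+/+ XX had an unadjusted p of 0.0393 in edgeR, which did not pass after adjustment (0.164). The mutant libraries gave the 3 highest shares of AGAP008288-RB. A direct test of whether the 2 transcripts change by different folds did not pass in any comparison (edgeR adjusted p = 0.334 for dsxF-/- XX over dsxF+/+ XX, 0.501 for dsxF-/- XX over dsxF+/+ XY and 0.987 for dsxF+/+ XY over dsxF+/+ XX), where 7.31%, 4.87% and 16.3% of 1313 genes did.

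Cry2, the cryptochrome that represses the Clk and cyc pair, gave the clearest separation of the groups among the 7 genes. Its summed level was 1651, 1447 and 1464 normalized counts in dsxF-/- XX (1521 ± 113, SD, n = 3), 2013, 2256 and 2135 in dsxF+/+ XY (2135 ± 122) and 676, 912 and 896 in dsxF+/+ XX (828 ± 132). The 3 groups did not overlap at all: every male library stood above every mutant library, and every mutant library above every female library. How many of all genes separate the 3 groups in this way was not counted. Cry2 was 2.58-fold higher in dsxF+/+ XY males than in dsxF+/+ XX (log2 1.37, SE 0.18, edgeR adjusted p = 3.14e-04) and 1.84-fold higher in dsxF-/- XX than in dsxF+/+ XX (log2 0.88, SE 0.18, edgeR adjusted p = 0.0117). Between mutant and male the log2 difference was -0.49 (SE 0.18, unadjusted p = 0.0217), which did not pass after adjustment in edgeR (0.149). Within the 3 runs of sample-sheet numbers, Cry2 was 1.63-fold, 2.44-fold and 1.59-fold higher in dsxF-/- XX than in dsxF+/+ XX, and 2.25-fold, 3.16-fold and 2.47-fold higher in dsxF+/+ XY males than in dsxF+/+ XX. The call for the mutant against the female was lost without dsxF-/- XX replicate 1 (log2 0.81, edgeR adjusted p = 0.0599) and without the 3 libraries of sheet numbers 1 to 7 (0.96, edgeR adjusted p = 0.16, the highest of 19 alternatives, of which the lowest was 5.09e-05), while that between the controls held in both of these fits. Over all genes, these fits called 5.88% and 1.02% between mutant and female, against 14.4% with all 9 libraries.

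The 3 annotated transcripts of Cry2 behaved less alike than the sum. AGAP004261-RB had 1360, 1124 and 558 normalized counts in dsxF-/- XX, 1617, 1077 and 1608 in dsxF+/+ XY, and 178, 260 and 547 in dsxF+/+ XX. It was higher in dsxF+/+ XY males than in dsxF+/+ XX (log2 2.13, SE 0.46, edgeR adjusted p = 0.00728) and higher in dsxF-/- XX than in dsxF+/+ XX (log2 1.63, SE 0.45, edgeR adjusted p = 0.0482), although mutant replicate 3 and female replicate 3 were nearly equal. The second of these calls was narrow and held in 8 of 19 alternatives. It was lost with the run of sample-sheet numbers as a block (edgeR adjusted p = 0.0787), with the replicate number as a block (0.0842), with only the groups compared (0.0683), without the libraries of sheet numbers 1 to 7 (0.0669) and at a threshold of 0.01. It was also lost without dsxF-/- XX replicate 1 or 2, dsxF+/+ XY replicate 1 or 3, or dsxF+/+ XX replicate 1 or 2, where the log2 values were 1.36, 1.56, 1.63, 1.64, 1.33 and 1.49 in that order and the adjusted p lay between 0.0665 and 0.16 in edgeR. AGAP004261-RC had 283, 326 and 73.5 normalized counts in dsxF-/- XX, 194, 1139 and 533 in dsxF+/+ XY, and 503, 639 and 86.2 in dsxF+/+ XX, with overlap in every comparison. None of its differences passed (edgeR adjusted p from 0.406 to 0.605), and that between dsxF+/+ XY and dsxF+/+ XX turned sign without dsxF+/+ XY replicate 2 (log2 -0.17).

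AGAP004261-RA split the libraries by sample-sheet number and not by group. It held 873 estimated counts in dsxF-/- XX replicate 3, 205 in dsxF+/+ XY replicate 1 and 232 in dsxF+/+ XX replicate 3, and at most 1.41 in each of the other 6 libraries. These 3 libraries have the sheet numbers 7, 1 and 3, the run of 1 to 7, and AGAP004261-RA made up 57.2%, 10.6% and 29.6% of their Cry2 counts. AGAP004261-RC was at its lowest share of Cry2 in the same 3 libraries, 4.96%, 9.54% and 9.62%, against 17.2% to 73.7% in the other 6. Of all 16066 transcripts, AGAP004261-RA was the 1 that had at least 10 counts in every library of that run and at most 2 in every other library, and the same held at a minimum of 100 counts. For the runs of 9 to 15 and of 17 to 23 there were 0 such transcripts. The levels of the 3 Cry2 transcripts therefore carry a division between transcripts that moved with the run, and its source was not tested. The gene sum is free of that division. Outside that run, AGAP004261-RC held 73.7% and 71.1% of Cry2 in dsxF+/+ XX replicates 1 and 2, against 17.2% and 22.5% in dsxF-/- XX replicates 1 and 2, and 24.9% and 51.4% in dsxF+/+ XY replicates 3 and 2. With all 9 libraries the test of unequal change within Cry2 did not pass in any comparison (edgeR adjusted p from 0.750 to 0.854). Without the run of 1 to 7 it passed for dsxF-/- XX over dsxF+/+ XX (edgeR adjusted p = 0.0360, 2 libraries per group), a fit added after the data were seen.

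**Figure D3:**
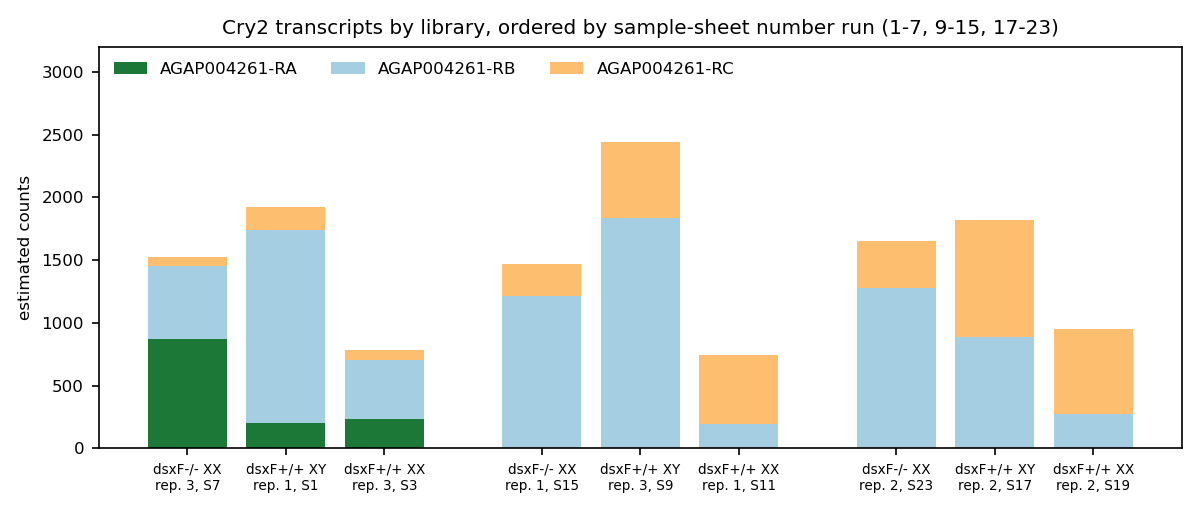
Estimated counts (y axis, linear, not scaled for depth) of the 3 Cry2 transcripts, stacked for each library and arranged by run of sample-sheet numbers (S, from the column names). AGAP004261-RA is present in the 3 libraries of numbers 1 to 7 and nearly absent in the other 6, in each of the 3 groups.

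In the activator arm, Clk, the transcription factor that pairs with cyc, had 3915, 2752 and 3189 normalized counts of AGAP005711-RA in dsxF-/- XX, 3228, 4419 and 3112 in dsxF+/+ XY, and 1444, 4876 and 2835 in dsxF+/+ XX. The females again held both the lowest and the highest of the 9 values. The log2 fold changes were 0.23 for dsxF+/+ XY over dsxF+/+ XX (95% interval -0.63 to 1.10), 0.11 for dsxF-/- XX over dsxF+/+ XX (-0.76 to 0.97) and -0.13 for dsxF-/- XX over dsxF+/+ XY (-0.99 to 0.74), with edgeR adjusted p from 0.676 to 0.911. For the mutant, the intervals include nearly 2-fold higher than dsxF+/+ XX (0.97) and nearly 2-fold lower than dsxF+/+ XY (-0.99). Small differences in Clk were thus not detectable with 3 libraries per group. The first 2 fold changes turned sign without dsxF+/+ XX replicate 1 (-0.10 and -0.23), the second also without dsxF-/- XX replicate 1 (-0.03). The last turned sign without dsxF-/- XX replicate 2 (0.01) or dsxF+/+ XY replicate 2 (0.05).

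cyc, its partner, had 2078, 1124 and 2087 normalized counts of AGAP005655-RA in dsxF-/- XX, 1707, 1377 and 1773 in dsxF+/+ XY, and 1113, 1189 and 1094 in dsxF+/+ XX. The male libraries lay above all female libraries, while mutant replicate 2 sat among the females and the other 2 mutant libraries above all males. Neither difference from dsxF+/+ XX passed: the log2 fold change was 0.52 in dsxF+/+ XY (SE 0.25, edgeR adjusted p = 0.145) and 0.64 in dsxF-/- XX (SE 0.25, edgeR adjusted p = 0.134). Without its replicate 2, cyc was higher in dsxF-/- XX than in dsxF+/+ XX (log2 0.90, edgeR adjusted p = 0.0354, the lowest of 19 alternatives, of which the highest was 0.644). Between mutant and male the log2 difference was 0.12, and it turned sign without dsxF-/- XX replicate 1 or 3 (-0.01 and -0.02).

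Pdp1, whose product activates Clk in Drosophila, had 2 transcripts with a sum of 3560, 2595 and 3314 normalized counts in dsxF-/- XX, 3117, 5195 and 4103 in dsxF+/+ XY, and 2028, 3401 and 2743 in dsxF+/+ XX. The sum overlapped between all groups and passed in no comparison, with a log2 fold change of 0.60 in dsxF+/+ XY over dsxF+/+ XX (SE 0.26, edgeR adjusted p = 0.1). The smaller transcript by counts, AGAP006376-RB, had 1052, 916 and 1084 normalized counts in dsxF-/- XX, 1070, 1570 and 1420 in dsxF+/+ XY, and 719, 851 and 554 in dsxF+/+ XX. Every mutant and every male library lay above every female library. It was 1.91-fold higher in dsxF+/+ XY males than in dsxF+/+ XX (log2 0.93, SE 0.22, edgeR adjusted p = 0.0110), while the difference for dsxF-/- XX (log2 0.52, SE 0.22, unadjusted p = 0.0382) did not pass after adjustment in edgeR (0.161). The male call held in 17 of 19 alternatives. It was lost at a threshold of 0.01 and without the libraries of sheet numbers 1 to 7 (log2 0.92, edgeR adjusted p = 0.07, the highest of 19 alternatives, of which the lowest was 5.13e-04). The last of these fits called 12.3% of all transcripts between the controls, against 29.8% with all 9 libraries.

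The larger Pdp1 transcript, AGAP006376-RA, had 2494, 1684 and 2255 normalized counts in dsxF-/- XX, 2068, 3532 and 2694 in dsxF+/+ XY, and 1328, 2501 and 2201 in dsxF+/+ XX, and was called in no comparison (edgeR adjusted p from 0.263 to 0.877). A call for the smaller transcript and none for the larger does not show that they changed by different amounts, and the direct test of that did not pass (edgeR adjusted p = 0.469 for dsxF+/+ XY over dsxF+/+ XX). AGAP006376-RB made up 29.7% to 35.2% of Pdp1 in dsxF-/- XX, 30.8% to 34.5% in dsxF+/+ XY and 20.1% to 35.1% in dsxF+/+ XX.

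Cry1, the light-sensing cryptochrome, had the smallest ratio of highest to lowest library among the 7 genes. Its level, all of AGAP001958-RA, was 3495, 3478 and 4072 normalized counts in dsxF-/- XX, 4281, 3912 and 3978 in dsxF+/+ XY, and 3183, 2782 and 3448 in dsxF+/+ XX. Males and mutants both lay above the females without overlap, by small margins. The log2 fold change was 0.37 in dsxF+/+ XY over dsxF+/+ XX (SE 0.17, edgeR adjusted p = 0.127) and 0.23 in dsxF-/- XX over dsxF+/+ XX (SE 0.17, edgeR adjusted p = 0.434), and neither passed. DESeq2 did call Cry1 higher in dsxF+/+ XY (log2 0.37, adjusted p = 0.0417, the lowest of 19 alternatives, of which the highest was 0.364). Between these groups DESeq2 called 36.8% of all transcripts, against 29.8% in edgeR. The difference between the fold changes of Cry1 and Cry2 was not tested.

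Ratios within a library do not depend on its depth, and gene length cancels when the same ratio is compared across libraries. The ratios were chosen after the values above had been seen and are given as a description. Counts of per over counts of tim were 0.532, 0.361 and 0.6 in dsxF-/- XX, 1.06, 0.926 and 0.978 in dsxF+/+ XY, and 0.25, 0.297 and 0.271 in dsxF+/+ XX. All 3 groups stood apart with no overlap, the females within a narrow band in spite of their wide spread in per and in tim. For ratios to tim or to Clk, the share of all genes with such a separation of the 3 groups was not counted. The ratio of per to tim was 3.63-fold higher in dsxF+/+ XY males than in dsxF+/+ XX and 1.79-fold higher in dsxF-/- XX than in dsxF+/+ XX. In dsxF-/- XX it was 0.493 times that in dsxF+/+ XY. A two-sided exact permutation test gave p = 0.1 each time, the smallest value that 3 against 3 libraries allow, so no ratio could pass 0.05.

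Against tim, 4 of the other 6 genes, per, Cry2, Clk and Pdp1, were higher in dsxF+/+ XY males than in dsxF+/+ XX without overlap, where 23.8% of all genes were. For dsxF-/- XX over dsxF+/+ XX this held for 2 of 6, per and Cry2 (15.5% of all genes), and per, Cry2 and Pdp1 were lower in dsxF-/- XX than in dsxF+/+ XY (16.3% of all genes lower). Since a ratio to tim carries the spread of tim into every gene, the ratio to Clk was taken as well. Clk is no steadier a denominator. Its SD of log2 levels between libraries was above that of tim in each group (0.90 against 0.54 in dsxF+/+ XX). The ratio of per to Clk was 0.811, 0.759 and 1.07 in dsxF-/- XX, 1.72, 1.36 and 1.46 in dsxF+/+ XY, and 0.737, 0.527 and 0.680 in dsxF+/+ XX. The 3 groups did not overlap, with 2.35-fold between dsxF+/+ XY and dsxF+/+ XX and 1.36-fold between dsxF-/- XX and dsxF+/+ XX. The lowest mutant library (0.759) and the highest female library (0.737) were close. In dsxF+/+ XY over dsxF+/+ XX, ratios to Clk were higher without overlap for per and Cry2 (7.5% of all genes) and lower for tim (19% of all genes). In dsxF-/- XX they were higher for per than in dsxF+/+ XX (4.79% of all genes), and lower for per than in dsxF+/+ XY (7.3% of all genes).

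**Figure D4:**
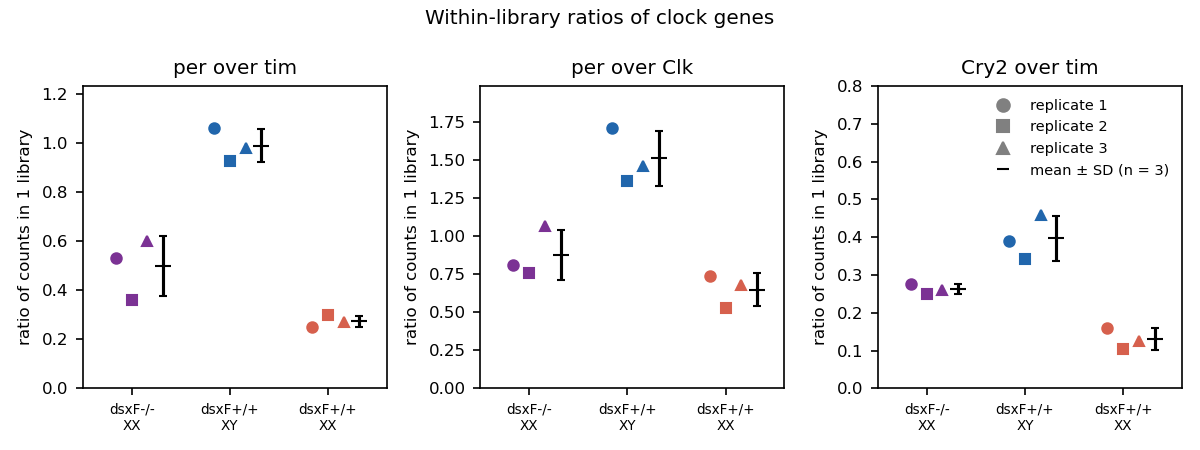
Ratios of estimated counts of per to tim, per to Clk and Cry2 to tim within each library (y axis, linear), with the mean and SD of the 3 libraries of a group. Each panel shows the 3 groups without overlap, dsxF+/+ XY highest and dsxF+/+ XX lowest; per over tim lies at 0.926 to 1.06 in dsxF+/+ XY and at 0.25 to 0.297 in dsxF+/+ XX.

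The spread between libraries of a group was itself uneven. In dsxF+/+ XX the SD of log2 levels was 0.90 for Clk, 0.66 for per and 0.54 for tim, against 0.08 for cyc and 0.14 for Cry1, and the median of all genes was 0.35. In dsxF-/- XX it was 0.51 for cyc and 0.38 for per, but 0.05 for tim, with a median of all genes of 0.25. In dsxF+/+ XY it lay between 0.06 for Cry1 and 0.37 for Pdp1, with a median of all genes of 0.31. Among the 3228 genes with a mean of at least 1000 normalized counts, the spread of Clk in dsxF+/+ XX was above that of 96.1% of genes and the spread of cyc in dsxF-/- XX above 94.5%. The value of Clk in the females was the highest among the 7 clock genes over all groups. That of tim in the mutants was the lowest (above 2.94% of genes). These values are thus picked extremes, and each SD rests on only 3 libraries, so it is imprecise. Whether other sets of genes of this size reach such extremes was not tested, so no repeatability particular to the clock genes can be read from them.

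The libraries of a group also kept an order across genes. For per, tim, Cry2, Clk and Pdp1, 5 of the 7 genes, dsxF+/+ XX replicate 1 was the lowest and replicate 2 the highest female library, an order that 27.5% of all genes had. The same 5 genes were highest in replicate 2 of dsxF+/+ XY (39.9% of all genes), and 21.3% of all genes had both orders. In dsxF-/- XX, replicate 2 was instead the lowest library for 6 of the 7 genes, tim being the exception, where 30.4% of all genes were lowest there. Replicate 2 of each group belongs to the run of sheet numbers 17 to 23. Over all transcripts tested, replicate 2 of dsxF+/+ XY and of dsxF+/+ XX deviated together from their group means (r = 0.452). The part of the run in these orders was not tested. The labels give no time of freezing for single pools, and whether the pools differed in it was not tested.

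**Figure D5:**
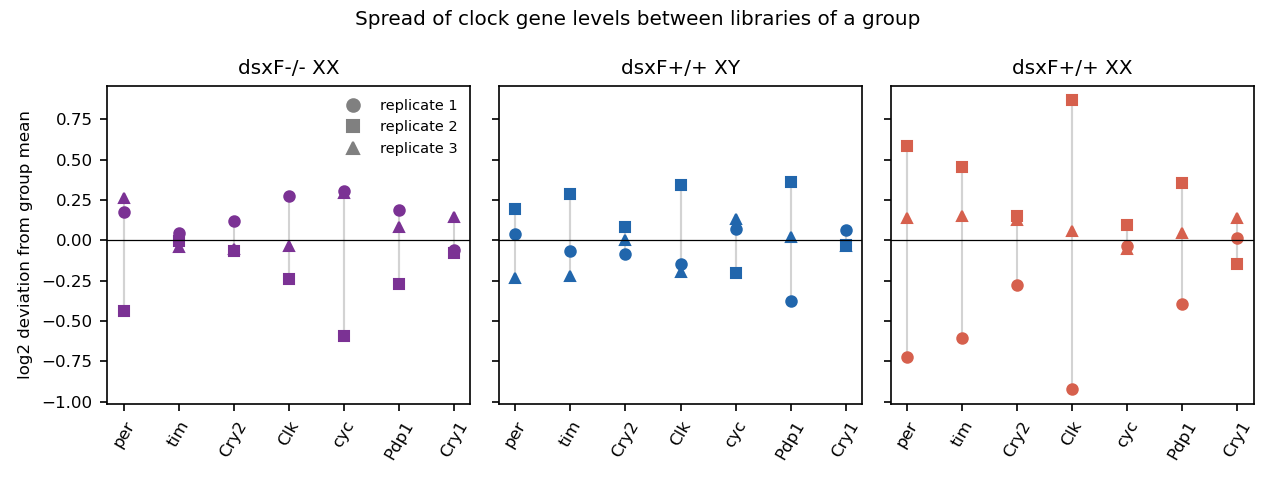
Log2 deviation of each clock gene from the mean of its group (y axis, of normalized counts plus 0.5), 1 panel per group and 1 symbol per replicate number. In dsxF+/+ XX, replicate 1 lies lowest and replicate 2 highest for per, tim, Cry2, Clk and Pdp1, with the widest gap for Clk, while in dsxF-/- XX replicate 2 lies lowest for 6 genes.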

How the data were processed

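Pedicel RNA of 9 libraries was prepared with a SMART-Seq v4 kit. The authors checked reads with FastQC and MultiQC and quantified them with kallisto (versions not given in the sources used here) against AgamP4.12 transcripts, so the deposited values are estimated counts per transcript, not scaled for depth or length. Between 31.5% and 33.1% of values per library were not whole, and 0 columns were left without a sample.

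Counts were rounded, then filtered by group with filterByExpr, scaled by TMM and fitted with edgeR 4.0.16 under R 4.3.3, with 1 fit of the 3 groups, quasi-likelihood tests and Benjamini-Hochberg adjustment over all features, called at an adjusted p under 0.05. Transcripts were tested singly and summed to genes, and diffSpliceDGE tested unequal change within a gene. Intervals (95%) come from the fit and include the spread between libraries. Log2 CPM used a prior count of 2. Alternatives were DESeq2 1.42.0, limma-voom (limma 3.58.1), other size factors, other filters, only the groups compared, leaving out each library, blocks and a threshold of 0.01. The scripts were tested on simulated data.

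All transcripts of the 7 genes are named, with every library's value for each gene and each leading or called transcript. For likeness of pattern, the transcripts with the highest Pearson r were taken. The clock genes were taken by identifier, with no measured value in the rule, but the members and lists were chosen with earlier results of these data known. Gene names came with the identifiers. The RefSeq table matched 0 of the 7 identifiers, so sequences, coordinates, other clock genes and markers of other tissues were not analysed here. For dsxF+/+ XY against dsxF+/+ XX, libraries of a run of sample-sheet numbers (1 to 7, 9 to 15, 17 to 23) deviated together (r = 0.213, 0.233 and 0.452), and this block changed no clock call in that comparison. With the mutant this did not hold in every run. There r was 0.094, -0.279 and -0.146 against dsxF+/+ XX, and 0.217, -0.152 and -0.063 against dsxF+/+ XY.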

Additional observations from a re-analysis of the deposited data

How the results depend on the processing

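The sum of Cry2 was called between dsxF+/+ XY and dsxF+/+ XX under all 19 alternatives (log2 1.24 to 1.47) and between dsxF-/- XX and dsxF+/+ XX under 16 of 19 (0.75 to 0.96). Between the controls, per was called under 18 of 19 (1.26 to 1.85), AGAP004261-RB of Cry2 under 19 of 19 (1.83 to 2.71) and AGAP006376-RB of Pdp1 under 17 of 19 (0.785 to 1.089). DESeq2 also called Cry1 between the controls (log2 0.37, adjusted p = 0.0417, with 0.0417 to 0.364 over the alternatives). In that comparison DESeq2 called 36.8% of all transcripts and edgeR 29.8%. Counts of clock transcripts and genes that moved are as follows. For dsxF-/- XX over dsxF+/+ XX the count of transcripts was 0 with only the groups compared (where 11.1% of all transcripts were called) and at an adjusted p under 0.01 (3.14%). It was also 0 with the replicate block (7.94%) and with the run block (9.52%), and 0 to 1 with a library left out (3.71% to 15.3%). The count of genes was 0 at an adjusted p under 0.01 (5.01% of all genes) and 0 to 2 with a library left out (5.88% to 20.3%). For dsxF-/- XX over dsxF+/+ XY the run block gave 1 transcript, AGAP004261-RC of Cry2 (log2 -1.39, edgeR adjusted p = 0.0258, with 0.0258 to 0.854 over the alternatives), where 6.37% of all transcripts were called. Leaving out a library gave 0 to 1 genes there (5.46% to 10.1% of all genes). Over all transcripts DESeq2 called 2350 for dsxF-/- XX over dsxF+/+ XX and 1478 for dsxF-/- XX over dsxF+/+ XY, where edgeR called 1368 and 915. With each library left out, 3 transcripts and 2 genes were called between the controls, where 20.3% to 36.8% of all transcripts and 23.1% to 41.5% of all genes were. Without the 3 libraries of sheet numbers 1 to 7, an alternative chosen after seeing the data, each group has 2 libraries. For dsxF+/+ XY over dsxF+/+ XX this fit called 1 transcript and 1 gene. Over all features it called 12.3% of transcripts and 15.8% of genes, against 29.8% and 32.6% with all 9 libraries. For dsxF-/- XX over dsxF+/+ XX it called 0 and 0, where 0.232% of all transcripts and 1.02% of all genes were called, against 11.1% and 14.4%. In that comparison it also called 1 gene of unequal transcript change, Cry2.

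All 22 values that changed sign belonged to differences that were not called. With a library left out, they ranged for Clk from -0.10 to 0.75 (dsxF+/+ XY over dsxF+/+ XX), -0.23 to 0.62 (dsxF-/- XX over dsxF+/+ XX) and -0.27 to 0.051 (dsxF-/- XX over dsxF+/+ XY), for AGAP004261-RC of Cry2 from -0.17 to 1.07 and AGAP008288-RA of tim from -0.548 to 0.018 (both dsxF+/+ XY over dsxF+/+ XX), for AGAP006376-RA of Pdp1 from -0.13 to 0.28, AGAP008288-RB of tim from -0.20 to 0.22 and the sum of tim from -0.451 to 0.004 (dsxF-/- XX over dsxF+/+ XX), and for the sum of tim from -0.003 to 0.239 and cyc from -0.017 to 0.389 (dsxF-/- XX over dsxF+/+ XY). AGAP004261-RA of Cry2, which rests on 1 library per group, ranged from -9.48 to 6.95, -7.14 to 8.94 and -6.84 to 11.15 in the same order of comparisons. With the replicate number as a block it was 4.27 for dsxF+/+ XY over dsxF+/+ XX and -2.82 for dsxF-/- XX over dsxF+/+ XY; the block otherwise moved only the call of AGAP004261-RB for dsxF-/- XX over dsxF+/+ XX (log2 1.70, edgeR adjusted p = 0.0842). Libraries of a replicate number did not deviate together throughout. The r of deviations was 0.452 for replicate 2 of dsxF+/+ XY and dsxF+/+ XX, and -0.279 to 0.174 for the other pairs. With 3 libraries per group and no markers of other tissues, small differences and carry-over were not resolved; the cause of these changes was not tested.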

Other observations

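Over the 9 libraries pooled, levels of per correlated with those of Pdp1 (Pearson r = 0.79), Cry2 (0.75), Clk (0.70), Cry1 (0.69) and cyc (0.61). The pooled r of per with tim was 0.08, and Clk correlated most with Pdp1 (0.85). These values describe the leading transcript of each gene in log2 CPM (AGAP004261-RB for Cry2), and the points share groups and libraries. A pooled r mixes differences between groups with those within a group. Log2 deviations of gene levels from the group mean, replicates 1 to 3, were as follows. In dsxF+/+ XX they were -0.722, 0.582 and 0.14 for per and -0.603, 0.455 and 0.148 for tim. In dsxF+/+ XY they were 0.04, 0.196 and -0.235, and -0.066, 0.287 and -0.222. In dsxF-/- XX they were 0.177, -0.436 and 0.259, and 0.047, -0.005 and -0.043. The transcripts outside the 7 genes most like per were AGAP029985.R829 (r = 0.985), AGAP005748-RA (0.982) and AGAP001480-RD (0.981). Those most like Clk were AGAP001415.R556 (r = 0.985), AGAP028638-RA (0.983) and AGAP004707-RD (0.977), all 6 without a name in the sources used here.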
